A study of Homo sapiens with 26 samples.

Results

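H3K27ac, the acetylation of histone H3 at lysine 27, was compared between wild-type (WT) HCT116 cells treated with Nutlin-3a for 10 h and the same line treated with the vehicle DMSO (0 h). The comparison took the peak lists of 4 of the 26 samples of the series, 2 replicates at each time point. Peaks of all 10 H3K27ac lists of the series were merged into 87570 regions, of which 60107 were called in at least 1 of these 4 lists. All 4 libraries came from 1 cell line, HCT116, which was derived from a colorectal carcinoma and retains wild-type p53. The study labels the replicates BR1 and BR2 and calls them biological. The remaining 6 H3K27ac lists came from WT cells after 1 h of Nutlin-3a and from an HCT116 derivative named for the cohesin subunit RAD21, with vehicle (0 h) or 1 h of Nutlin-3a. The labels give no further treatment for that derivative, although the study degraded RAD21 in it, so it is called the RAD21 line here. Its lists entered the estimate of spread, and its vehicle lists are set beside the results as further lists from cells without Nutlin-3a. Where this line is called untreated, the word means without Nutlin-3a only, since the study profiled H3K27ac in it after RAD21 depletion.

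Nutlin-3a blocks the binding of p53 to its inhibitor HDM2, so that p53 accumulates without DNA damage. p53 binds as a tetramer to paired decamers, many of them far from promoters, and activates genes of cell-cycle arrest, apoptosis and repair. Its target p21 (CDKN1A) holds RB-family proteins in complex with E2F factors and the MuvB core, and these complexes silence genes of DNA replication and mitosis through E2F and CHR elements in their promoters. H3K27ac marks active promoters and enhancers, and H3K4me1 marks enhancers whether or not they are active.

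Each 0 h list held fewer peaks (33976 in replicate 1, 32739 in replicate 2) than either 10 h list (49127 and 46638). The lists give no read counts. The study states a minimum depth for H3K27ac libraries and provides statistics of its ChIP-seq libraries, which were not used here, so depth was not compared. Both 0 h lists and 1 h replicate 1 carry peak names without the word input, and the other 7 H3K27ac lists carry it. The highest fold enrichment of a peak was 31.5 and 30.2 in the 0 h lists and 30.5 in 1 h replicate 1, against 103 to 296 in the lists with input in their names, whereas the median fold was between 4.50 and 7.57 in all 10. The form of the name coincided with the time point in the comparison. A difference between 10 h and 0 h thus cannot be told apart from a difference in how the lists were made. Only the pair of 1 h replicates differ in the form of the name within a time point. That pair holds 1 list of each form, so the form cannot be told apart there from any other difference between the replicates. A fit with the form as a term rests on that pair and assumes the same effect of the form in the 10 h comparison. Regions were therefore compared by rank within each list. Promoters of 11 of 15 epithelial markers, EPCAM, CDH1 and KRT8 among them, were called in all 10 H3K27ac lists, whereas this held for 1 of 25 markers of other cell types, the neuronal gene MAP2, at rank percentiles of 1.39 to 8.68 in the 4 lists.

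Sequences are shown for regions with small p-values for a rank change, which are not in every case those with the largest change. The first set holds p53 response elements (20 bases, no spacer, at most 1 mismatch and none in the core tetramers, both strands) in regions that ranked higher at 10 h, with 10 bases on either side, as the plus strand of GRCh37 and with the element in capitals. They lie in an exon of TMOD3 at chr15:52156864-52156903, in intergenic DNA whose nearest coding gene is PCDH7 at chr4:31236285-31236324, GPR157 at chr1:9242193-9242232 or TGFA at chr2:70824212-70824251, and in an intron of GPHN, nearest to the start of GARIN2, at chr14:67399504-67399543. Each of them matched without a mismatch.
TMOD3: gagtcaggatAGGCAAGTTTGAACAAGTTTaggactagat
PCDH7: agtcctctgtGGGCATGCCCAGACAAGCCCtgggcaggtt
GPR157: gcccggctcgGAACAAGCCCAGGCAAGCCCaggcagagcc
TGFA: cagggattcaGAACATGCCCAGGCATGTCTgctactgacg
GARIN2: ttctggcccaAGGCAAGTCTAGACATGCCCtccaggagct

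Elements without a mismatch were also found in regions called at 10 h and not at 0 h. The best ranked lay in an intron of CCNG2, nearest to the start of CXCL13, at chr4:78263750-78263789, and in an intron of CFTR at chr7:117270755-117270794.
CXCL13: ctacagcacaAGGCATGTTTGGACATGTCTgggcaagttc
CFTR: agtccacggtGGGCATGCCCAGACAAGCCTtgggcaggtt

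The second set holds promoters whose rank fell, from 150 bases upstream to 30 bases downstream of the start site in the direction of transcription, on GRCh37. SPC25 (chr2:169746911-169747090, minus strand) and MCM3 (chr6:52149511-52149690, minus strand) were read from the minus strand, CDK1 (chr10:62538086-62538265) and MCM10 (chr10:13203408-13203587) from the plus strand. Capitals mark matches, on either strand, to the CHR element (TTTGAA or TTCGAA), the CCAAT box (CCAAT) and the E2F site (TTCCCGCC or TTGGCGCC). A CCAAT box on the other strand can share bases with the second E2F form. These matches are descriptions of the letters and not binding sites.
SPC25: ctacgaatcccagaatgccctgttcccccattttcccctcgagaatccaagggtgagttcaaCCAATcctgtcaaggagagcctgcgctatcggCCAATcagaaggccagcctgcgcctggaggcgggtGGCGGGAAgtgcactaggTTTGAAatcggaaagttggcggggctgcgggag
CDK1: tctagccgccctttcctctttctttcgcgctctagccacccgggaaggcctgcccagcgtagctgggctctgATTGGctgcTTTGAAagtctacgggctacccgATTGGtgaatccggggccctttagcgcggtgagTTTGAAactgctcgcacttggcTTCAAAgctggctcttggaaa
MCM3: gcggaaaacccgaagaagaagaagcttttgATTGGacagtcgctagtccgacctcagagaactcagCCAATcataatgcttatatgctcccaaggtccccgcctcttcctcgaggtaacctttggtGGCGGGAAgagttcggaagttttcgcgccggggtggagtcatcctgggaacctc
MCM10: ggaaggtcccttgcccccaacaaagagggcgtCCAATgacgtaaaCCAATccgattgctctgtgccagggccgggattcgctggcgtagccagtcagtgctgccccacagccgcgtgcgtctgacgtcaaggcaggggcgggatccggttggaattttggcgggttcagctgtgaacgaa

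Promoters of DNA replication, mitosis and homologous recombination genes included many that lost H3K27ac rank after 10 h of Nutlin-3a, with 33 of 59, 27 of 68 and 18 of 35 ranked lower. Of the 18757 regions called in all 10 lists, 1606 ranked lower at 10 h than at 0 h (8.56% of those tested) and 1820 ranked higher (9.70%), by limma on normal scores of the ranks with an adjusted p under 0.05. Before adjustment, 6369 regions had a p under 0.05. A rank change is the difference of 2 normal scores, so it is relative to the other regions of a list, and ranks are given as percentiles among the 18757 regions, with 100 as the strongest. Regions that ranked lower lay mostly at promoters, and at the level of genes 1161 of 11739 coding genes had a promoter region that ranked lower (9.89%), while 621 had one that ranked higher (5.29%).

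The smallest p-value among promoters belonged to SPC25, a subunit of the kinetochore's NDC80 complex. Its promoter stood at percentiles 56.7 and 54.1 in the 0 h replicates and at 1.91 and 3.99 in the 10 h replicates, a rank change of -2.05 ± 0.14 (SE, n = 2 lists per group, limma adjusted p = 1.71e-05). In the RAD21 line without Nutlin-3a it stood at 40.2 and 41.6, so that both 10 h lists were the lowest of these 6. MKI67, which encodes the proliferation marker Ki-67, went from 90.0 and 87.8 to 41.2 and 40.1 (-1.46 ± 0.12, adjusted p = 3.26e-05). CDK1, the kinase that drives entry into mitosis, went from 69.9 and 68.5 to 23.1 and 20.8 (-1.28 ± 0.11, adjusted p = 4.06e-05), and its percentiles in the untreated RAD21 line were 88.3 and 85.5. The groups did not overlap at any of these promoters, but they were picked by smallest p-value, so this adds nothing to the test. RBL1, which encodes the RB-family protein p107, went from 70.0 and 64.9 to 14.8 and 18.2 (-1.43 ± 0.11, adjusted p = 3.22e-05). The helicase subunit gene MCM3 went from 77.5 and 83.3 to 31.3 and 28.0 (-1.40 ± 0.12, adjusted p = 3.77e-05). MCM10, a replication initiation factor, went from 82.7 and 78.9 to 33.2 and 39.2, and DNMT1, the maintenance DNA methyltransferase, from 69.9 and 73.1 to 28.6 and 24.0. The promoter of DPYSL2, which encodes a microtubule-binding protein best known from neurons, went from 68.4 and 62.6 to 19 and 18.6. For all 8 of these promoters, those with the smallest p-values, the change kept its direction and an adjusted p under 0.05 when the form of the peak name was added to the fit as a term, estimated from the 1 h pair, with changes between -2.09 for SPC25 and -1.03 for DNMT1.

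**Figure D1:**
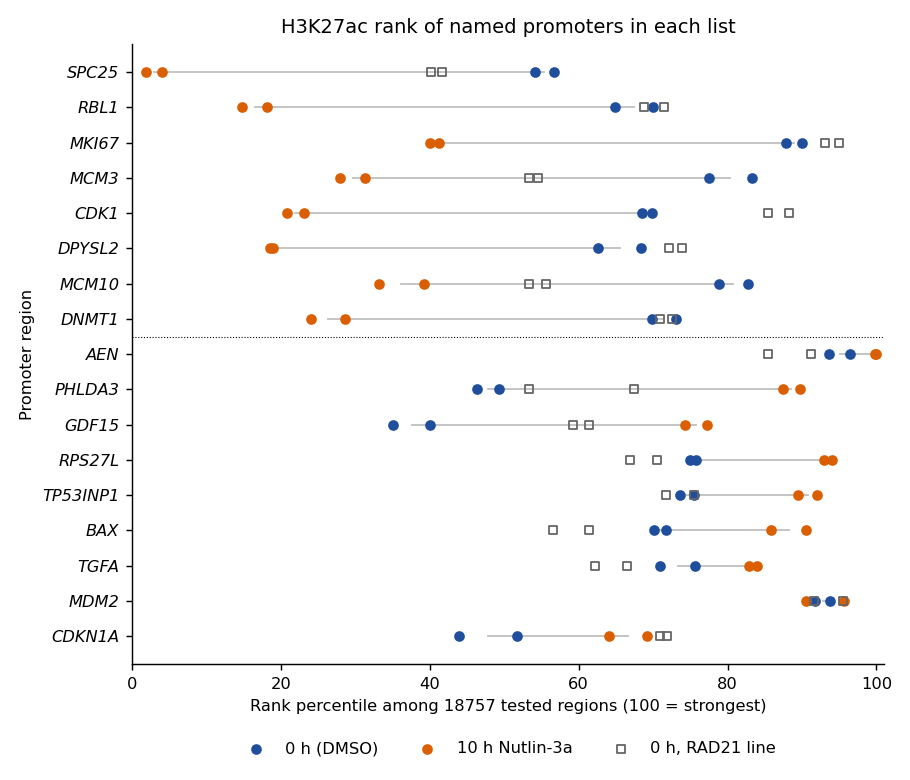
Rank percentile of H3K27ac at named promoters (x axis, 100 = strongest of 18757 regions) in each WT list at 0 h and 10 h and in the untreated RAD21 line lists, with 2 points per group and a grey line between the WT group means. The upper 8 promoters ranked lower at 10 h, and of the 9 p53 target promoters below the dotted line all but CDKN1A and MDM2 ranked higher. These 9 are a selection, and of the 44 tested promoters of the p53 target list 10 ranked higher.

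Of 60 genes of DNA replication and the G1/S transition, 59 had a promoter region in all lists, and 33 of these ranked lower and 1 higher. Their median rank change was -0.58, against -0.07 over all 11739 genes, and their median percentile was 75.8 and 76.8 in the 0 h lists and 57.3 and 57.7 in the 10 h lists. Members with falls included subunits of the primase and the helicase. PRIM1, the catalytic primase subunit, whose promoter region also covers HSD17B6, changed by -2.06 ± 0.21 (adjusted p = 0.000127). GINS2, a subunit of the helicase complex, went from percentiles 63.8 and 61.5 to 7.92 and 7.05 (-1.76 ± 0.17, adjusted p = 8.7e-05). MCM2, which shares its region with TPRA1, went from 93.8 and 93.0 to 55.5 and 50.2 (-1.43). MCM5 changed by -1.28, POLE2, a subunit of DNA polymerase epsilon, by -1.18, the transcription factor E2F2 by -1.13 and CDC7, the kinase that fires origins, by -0.97. ORC2, of the origin recognition complex, was the member that ranked higher, by 0.47 (adjusted p = 0.0311), and its adjusted p was 0.842 with the name form as a term. With that term, 22 members ranked lower and 0 higher, with a median of -0.42.

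Genes of mitosis and the kinetochore showed the same direction with a smaller median. All 68 had a tested promoter, of which 27 ranked lower and 4 higher, and the median change was -0.30. MYBL2, which encodes the MuvB partner B-Myb, went from percentiles 53.8 and 59.1 to 8.86 and 14.8 (-1.36 ± 0.14, adjusted p = 0.000126). BIRC5, which encodes survivin of the chromosomal passenger complex, went from 81.0 and 81.6 to 33.2 and 26.7 (-1.42 ± 0.17, adjusted p = 0.000421). CCNB2, the partner cyclin of CDK1, went from 74.2 and 71.0 to 41.6 and 43.6 (-0.79). The 4 that ranked higher were CDCA3 (0.59, region shared with USP5), CKAP2 (0.53), CDC25B (0.69) and ANLN (0.58, region shared with MATCAP2), so the list did not move as a whole. With the name form as a term, 13 ranked lower and 1 higher, and the median was -0.28.

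Among 35 genes of the Fanconi pathway and homologous recombination, 18 promoters ranked lower and 0 higher, with a median change of -0.47 (17 did not pass the test). RMI2, of the complex that dissolves double Holliday junctions with BLM, went from percentiles 46.2 and 50.1 to 8.58 and 10.5 (-1.26 ± 0.14, adjusted p = 0.000179). FANCI and FANCD2, which together form the clamp that is ubiquitinated at crosslinks, changed by -1.02 and -0.76. The helicase gene BRIP1 changed by -0.89, although its adjusted p was 0.130 with the name form as a term. With that term 6 members ranked lower and 0 higher, with a median of -0.41. Of 15 genes of cohesin and CTCF, SMC3 (-0.69), RAD21 (-0.58) and SMC1A (-0.43) ranked lower (20.0%, beside 9.89% of all genes) and 0 ranked higher, with a median of -0.15. With the name form as a term 3 ranked lower and 1 higher, with a median of -0.14. By rank of fold enrichment the median of this list was 0.29, the opposite direction.

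Sequence features of the promoters differed between these lists. The CHR element lay in 75.0% of the mitosis promoters and 6.67% of the replication promoters, against 6.92% of all 19517 coding promoters read, over the same window around the start site as in the printed sequences. The E2F site lay in 35.0% of replication promoters, 34.3% of Fanconi and recombination promoters and 10.3% of mitosis promoters, against 3.77% of all. CCAAT boxes lay in 72.1%, 55.0% and 40.0% of the mitosis, replication and Fanconi promoters, against 27.9% of all. Read over all genes rather than the lists, 94 of 595 tested genes with a CHR promoter ranked lower (15.8%) and 28 higher, and 102 of 569 with an E2F promoter ranked lower (17.9%) and 20 higher, beside the 9.89% of all genes that ranked lower. In the promoters printed above, SPC25 held 1 CHR, 2 CCAAT and 1 E2F match, CDK1 held 3 CHR and 2 CCAAT matches, MCM3 held 2 CCAAT and 1 E2F match, and MCM10 held 2 CCAAT matches.

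Promoters of p53 target genes ranked higher in part. Of 48 such genes, 44 had a tested promoter, of which 10 ranked higher (22.7%, beside 5.29% of all genes) and 0 lower, with a median change of 0.15. With the name form as a term, 6 ranked higher and 2 lower, FDXR (-0.81) and BBC3 (-0.60), both picked after their values were seen, and the median was again 0.15. Their median percentile was 71.1 and 70.9 at 0 h and 81.4 and 81.8 at 10 h. The promoters of EDA2R, SPATA18 and TRIM22 lay in no region.

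PHLDA3, an inhibitor of AKT, went from percentiles 49.3 and 46.4 to 89.7 and 87.4 (1.26 ± 0.14, limma adjusted p = 0.000224). GDF15, a secreted factor of the TGF-beta superfamily, went from 40.1 and 35.1 to 74.3 and 77.2 (1.02 ± 0.12, adjusted p = 0.000427). AEN, an apoptosis-enhancing nuclease, was already near the top at 96.4 and 93.7 and reached 100 and 99.8 (1.45 ± 0.21, adjusted p = 0.00111). At none of these did the groups overlap, which adds nothing to the test because they were picked from the same values. All 3 also ranked higher with the name form as a term. RPS27L changed by 0.83, PLXNB2 by 1.06, PLK3 by 0.62 (its region also covers BTBD19 and DYNLT4) and DDB2, a damage recognition protein, by 0.49. BAX, the pro-apoptotic pore protein, went from 71.8 and 70.1 to 90.6 and 85.8 (0.64 ± 0.14, adjusted p = 0.00951), with an adjusted p of 0.183 once the name form was a term. TP53INP1, which shares its promoter with NDUFAF6, went from 75.5 and 73.6 to 92.0 and 89.5 (0.67 ± 0.18, adjusted p = 0.0239). With the name form as a term its change was larger (1.4 ± 0.16, limma adjusted p = 5.7e-05), as its difference within the 1 h pair was -0.73. By rank of fold enrichment its change was -0.33. TP53INP1 did not pass the test when any 1 of the 4 lists was left out (0.59 to 0.74), nor did BAX without either 0 h list or without 10 h replicate 1 (0.52 to 0.67).

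The best known targets were not among those that moved most. CDKN1A stood at 43.9 and 51.7 at 0 h and 64.1 and 69.2 at 10 h, a change of 0.49 ± 0.16 (limma adjusted p = 0.0540), and with the name form as a term the estimate was -0.11. MDM2, which encodes HDM2, was at 93.8 and 91.8 at 0 h and 95.6 and 90.6 at 10 h (0.05 ± 0.16, adjusted p = 0.858). For PLK2 the change was 0.10 ± 0.12 (adjusted p = 0.558). These intervals do not show that the promoters stayed as they were, since MDM2 was near the top of every list and ranks cannot rise far there. TGFA, an EGF receptor ligand that the study counts with CDKN1A and BAX as a well-known target, ranked higher (0.35 ± 0.11, adjusted p = 0.0467). Of the promoters that the study followed as distal targets, BRD7, a bromodomain protein, ranked lower (-0.67 ± 0.20, adjusted p = 0.0324). The estimates for JAG2, a Notch ligand (0.34), TENT4B (-0.24), LAMC1 (0.17), S100A1 (-0.05) and PCM1 (0.04) did not pass the test. With the name form as a term neither TGFA (0.43, adjusted p = 0.155) nor BRD7 (-0.10, adjusted p = 0.865) passed it. TGFA did not pass when any 1 list was left out (0.27 to 0.42), and BRD7 passed only without 10 h replicate 1 (-0.84 to -0.41 without each other list).

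Other promoters with the smallest p-values among those ranked higher were not in the p53 target list, apart from PHLDA3. TM7SF2, a sterol reductase of cholesterol synthesis, went from percentiles 0.973 and 0.317 to 40.8 and 39.2 (2.28 ± 0.19, adjusted p = 3.26e-05), but stood at 49.0 and 59.3 in the RAD21 line without Nutlin-3a. BCL2L1, which encodes the survival protein BCL-XL, lay in a merged region of 35328 bp and went from 56.4 and 49.6 to 91.2 and 92.4 (1.32 ± 0.13, adjusted p = 9.12e-05), with 96.7 and 95.2 in the untreated RAD21 line. For AJM1 and ATXN1, too, the untreated RAD21 line stood above the 10 h lists, whereas for PHLDA3 and PRDM1 the 10 h lists were the highest. PRDM1, the transcriptional repressor BLIMP1, went from 13.9 and 10.8 to 57.5 and 53.6 (1.3 ± 0.15, adjusted p = 0.000247), against 33.0 and 28.1 in the untreated RAD21 line. TXNRD2, the mitochondrial thioredoxin reductase, went from 1.5 and 0.882 to 24.4 and 21.9, below the 37.2 and 30.7 of the untreated RAD21 line. An unnamed coding gene within APBB2, ENSG00000289761, changed by 1.55.

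Away from promoters, regions with a p53 response element ranked higher more often than other regions did. Of 8145 tested regions outside promoters, 1245 ranked higher (15.3%) and 500 lower (6.14%), and of the 66 of them that held an element anywhere, 52 ranked higher (78.8%) and 0 lower, with a median change of 0.96. With the name form as a term, the median was 0.84 and 27 ranked higher, and by rank of fold enrichment it was 0.91 and again 27 ranked higher, with 0 lower. At promoters, 34 regions held an element, of which 7 ranked higher and 3 lower, with a median of 0.11, beside 5.42% and 10.4% of all promoter regions. The median width of the 66 regions was 3207 bp, against 1865.5 bp for all regions ranked lower and 4641.5 bp for all ranked higher.

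In 300-bp windows centred on the summit, the search was narrower and found an element in 23 of the tested regions, of which 19 ranked higher and 1, at the TTC8 promoter, ranked lower, with a median of 1.03. With the name form as a term 13 ranked higher, and by rank of fold enrichment 9 ranked higher and 1 lower, with a median of 0.71. The summit was that of the list in which the region ranked best, so the choice of window depended on the lists compared. With windows on the 0 h summit, 19 of 22 ranked higher and 1 lower. Windows with an element made up 1.04% of those ranked higher, 0.0623% of those ranked lower and 0.123% of all tested.

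Single regions of this kind showed large moves. The region in an exon of TMOD3, which encodes an actin-capping tropomodulin, lay 33149 bp from the start site. It went from percentiles 0.419 and 1.11 to 59.9 and 58.8 (2.70 ± 0.19, limma adjusted p = 1.71e-05), with 14.8 and 19.3 in the untreated RAD21 line. The region 51079 bp from GPR157 went from 70.6 and 63.8 to 99.4 and 99.0 (1.96 ± 0.17, adjusted p = 3.77e-05). Both 10 h lists placed it above the untreated RAD21 line, at 77.2 and 67.6. The region 512729 bp from PCDH7, a protocadherin gene, went from 14 and 10.7 to 78.1 and 80.3 (1.98 ± 0.16, adjusted p = 3.34e-05). The region 41822 bp from TGFA went from 62.1 and 65.2 to 93.3 and 95.1 (1.23 ± 0.13, adjusted p = 0.000136), a larger change than that of the TGFA promoter, and the estimate was 1.27 with the name form as a term. The difference between region and promoter was not tested. In the intron of GPHN, nearest to GARIN2, the percentile rose from 18.4 and 15.7 in the 0 h lists to 67.4 and 67.0 (1.40 ± 0.13, adjusted p = 8.53e-05). All of these regions were called in both H3K4me1 lists at 0 h and at 10 h, which held for 99.5% of all tested regions at each time point.

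Regions without an element also moved, though among the named regions outside promoters that ranked higher by less than those near TMOD3, PCDH7 and GPR157. The exon of GAS6, a ligand of TAM receptor kinases, went from 75.9 and 73.9 to 98.8 and 98.8 (1.59 ± 0.12, limma adjusted p = 2.06e-05), and an intron of OSBPL3, an oxysterol-binding protein, from 42.7 and 54.5 to 94.6 and 92.9 (1.57 ± 0.13, adjusted p = 3.26e-05). In the opposite direction, an intergenic region 26441 bp from DHRS7B went from 59.5 and 53.4 to 2.66 and 3.75 (-2.02 ± 0.16, adjusted p = 3.16e-05). Further regions outside promoters with small p-values among those ranked lower lay nearest to PIK3C3 (-1.07, 2154729 bp away), KLHDC4 (-1.04) and CREB3L1 (-0.93). No p53 response element was found in these lower regions.

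Stress, immune and adhesion gene lists gave mixed counts. Of 31 promoters of the integrated stress response, 8 ranked lower (25.8%, beside 9.89% of all genes) and 2 higher, and with the name form as a term 3 ranked lower and 0 higher. CHAC1, a glutathione-degrading enzyme induced by ATF4, went from percentiles 90.1 and 90.5 to 62.3 and 63.1 (-0.97 ± 0.11, limma adjusted p = 0.00034), CEBPG changed by -0.73, asparagine synthetase (ASNS) by -1.0 and MTHFD2, of mitochondrial folate metabolism, by -0.77. The median of this list was -0.06, and -0.25 with the term. Of 31 interferon response promoters, 5 ranked lower (16.1%) and 0 higher, led by OAS3 (-0.88) and IFIT3 (-0.52), with a median of -0.16. With the term 1 ranked lower and the median turned to 0.04. Of 23 promoters of NF-kB targets and secreted factors, 4 ranked lower (17.4%, and 2 of 23 with the term), with the chemokine genes CXCL2 (-0.82), CXCL3 (-0.45) and CXCL1 (-0.58) among them, and LIF ranked higher (1.12, with an estimate of -0.21 once the name form was a term).

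For the AP-1 and immediate early genes the direction depended on the fit. Of 35 promoters 6 ranked higher and 2 lower, with a median of 0.48, and with the name form as a term 0 ranked higher and 5 lower, with a median of -0.25. FOSL1, an AP-1 subunit whose region also covers CCDC85B and FIBP, was at 95.7 and 93.6 at 0 h and 99.7 and 99.7 at 10 h (1.16 ± 0.27, limma adjusted p = 0.0121), with an estimate of 0.03 under that term. MAFK changed by 0.73, and KLF10 and KLF4 by 0.80 and 0.45, and none of these 4 passed the test with the term. Within the 1 h pair the median difference of this list was 0.43.

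Replication-dependent histone genes and zinc finger genes of chromosome 19 also depended on it, the first by turning direction and the second by losing most calls. Most lower calls were lost over all tested regions too, where 190 of 1606 were kept with the name form as a term. Of 45 histone genes, in 26 shared regions, 5 ranked higher and 1 lower with a median of 0.27, and with the name form as a term 0 ranked higher and 14 lower, with a median of -0.50. Of 140 ZNF genes of chromosome 19, 40 ranked lower and 1 higher with a median of -0.32, and with the term 2 ranked lower and 1 higher, with a median of -0.02. ZNF700 was the member with the smallest p-value (-0.82 ± 0.12, limma adjusted p = 0.000947). The difference within the 1 h pair had a median of 0.77 for the histone genes and -0.28 for the ZNF genes.

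Adhesion and signalling lists had more higher calls than lower ones in most cases, and most of these were lost with the name form as a term. This loss was not particular to them, since over all tested regions 166 of the 1820 higher calls were kept with the term. Of 28 Hippo and YAP targets, 7 ranked higher (beside 5.29% of all genes) and 0 lower, and 2 ranked higher with the term. MYOF, which encodes myoferlin, went from 59.8 and 59.6 to 94.7 and 95.7 (1.42 ± 0.18, limma adjusted p = 0.00047) and also ranked higher with the name form as a term (0.69). Of 25 laminin, integrin and hemidesmosome promoters 6 ranked higher (24.0%) and 1 lower, and with the term 1 and 0. ITGA2, the collagen-binding integrin chain, ranked higher by 0.54 and also with the term (0.72, adjusted p = 0.0286), while ITGA3 (0.92), ITGB4 (0.67) and PLEC (1.58) ranked higher and did not pass with it. Among 25 TGF-beta and BMP genes 4 ranked higher and 2 lower (TGIF1 1.54, ID1 0.97, SMAD3 0.47), among 16 genes of the EGF receptor family 3 and 2 (EREG, an EGF receptor ligand, 1.10), among 21 Wnt targets and intestinal stem cell genes 2 and 4 (DKK1 1.13, AXIN2 -0.55) and among 22 epithelial transcription factors 2 and 1 (ESRP1 0.63, KLF3 0.73). None of the genes named for these last 4 lists passed with the name form as a term.

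Genes of ribosomes, lipid synthesis and lysosomes had few calls, to be read beside the 5.29% of all genes that ranked higher and the 9.89% that ranked lower. Of 79 cytosolic ribosomal protein promoters 7 ranked lower (8.86%, near that share) and 0 higher (RPS20 -0.70, RPS3 -0.49), with a median of -0.09, and by rank of fold the median was 0.66. Of 40 ribosome biogenesis genes 1 ranked higher (RRP12, 0.64) and 3 lower, with a median of 0.06. Of 35 genes of cholesterol synthesis, 3 ranked higher (8.57%), TM7SF2 and MSMO1 (0.55) among them, and INSIG1 (-0.60) ranked lower. Among 40 lysosome and autophagy genes 4 ranked higher and 4 lower (10.0% each), with ATG12 at 1.12. Of 29 BCL2 family and caspase genes, BCL2L1 ranked higher, and 3 ranked lower, BCL2 (-0.64) and CASP2 (-0.66) among them. In the Notch pathway HES1 (0.41) was the 1 member of 19 that ranked higher, and 0 ranked lower. Epithelial markers had 2 of 11 higher (CLDN4 0.94 and KRT19 0.66) and 0 lower, and neither passed with the name form as a term.

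**Figure D2:**
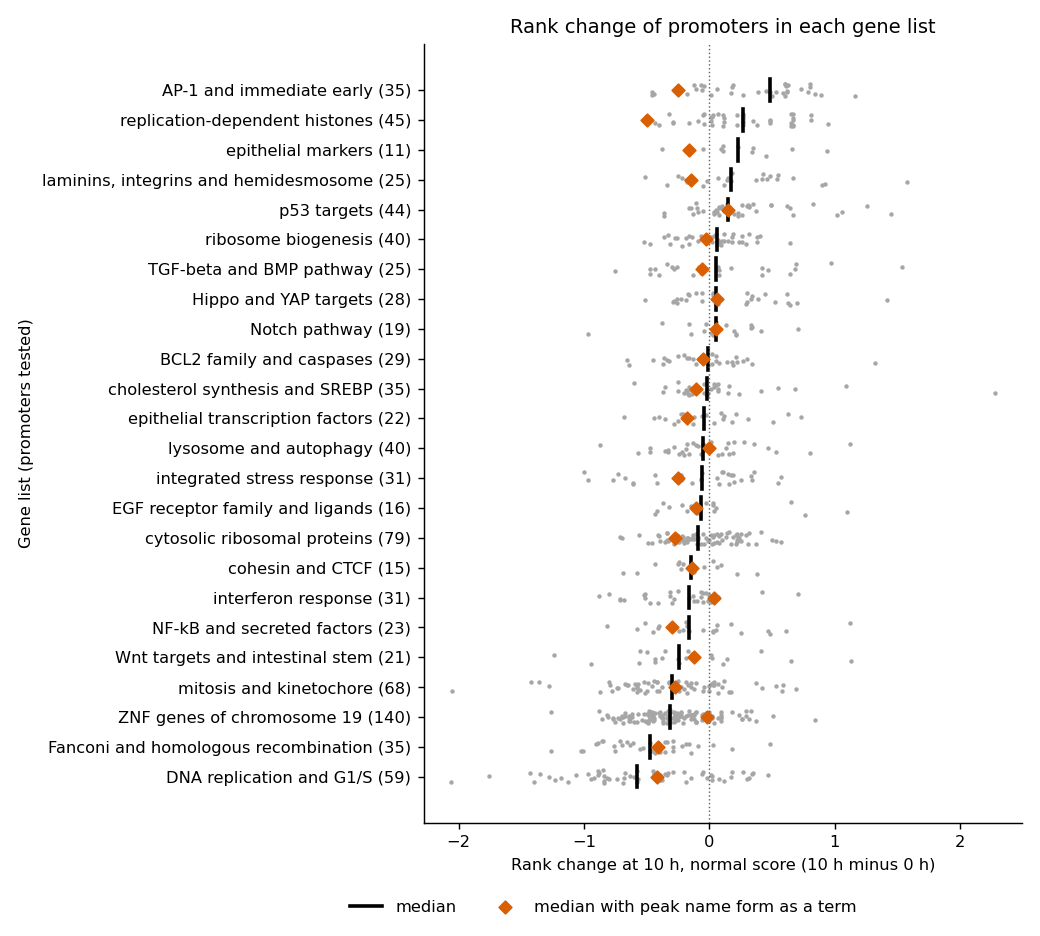
Rank change at 10 h (x axis, normal score, 10 h minus 0 h) of each tested promoter (grey points) by gene list, with the list median as a black bar and the median with the form of the peak name as a term as an orange diamond. Replication, recombination and mitosis genes had both medians below 0 (-0.58 and -0.42 for replication) and p53 targets both at 0.15, while AP-1 and histone genes changed sign.

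Calls at 10 h that were absent at 0 h lay in exons and introns more often than merged regions in general. Of the 87570 merged regions, 10018 were called in both 10 h lists and in neither 0 h list (gained, 11.4%), 1668 in both 0 h lists and in neither 10 h list (lost, 1.90%) and 21689 in all 4. Gained regions lay in introns for 55.6%, between genes for 11.6% and at promoters for 2.80% (95% Wilson interval 2.50 to 3.15, counting error only), and the other 3005 lay in exons. Of all 87570 merged regions, 47.2% lay in introns, 14876 in exons, 21.1% between genes and 14.7% at promoters. Their median width was 1020 bp, and their median percentile among the peaks of the 10 h lists was 31.2, with 1394 at or above the 50th percentile (13.9%).

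Gained regions inside genes lay mostly in genes with a called promoter. Of the 8571 in exons or introns, 97.4% lay in a gene whose own promoter was called in all 4 lists. This held for 60.2% of coding genes, a share of genes, and the share over all merged regions in exons or introns was not computed. Within 5000 bp of a 0 h peak lay 41.1% of gained regions, against 62.8% of all merged regions, which include the 0 h peaks themselves. Coding genes nearest to a gained region numbered 4803 of 15452 (31.1%). In the lists above, this share was 69.2% for ribosome biogenesis, 64.4% for DNA replication, 62.7% for mitosis, 40.9% for p53 targets, 7.95% for ZNF genes of chromosome 19 and 5.71% for histone genes. Genes with most gained regions, picked after their values were seen, were ANKRD11, a chromatin regulator, with 31 (29 within the gene), PRKDC, the DNA-dependent protein kinase, with 29, SEPTIN9 with 27, and the export receptor XPO1 and TBCD with 19 each. Chromosome 17 held 8.80% of gained regions, 7.46% of all merged regions and 6.01% of those called in all 4 lists. In the same order, chromosome 16 held 6.84%, 5.52% and 4.25%, chromosome 19 held 7.71%, 6.0% and 5.73%, and chromosome X held 0.779%, 1.31% and 2.63%.

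Promoters with the highest mean percentile in the 10 h lists among the gained were few and in part present elsewhere in the series. EPS8L1, an EGF receptor substrate relative that acts on actin, stood at the 73.2 and 72.9 percentile of the peaks in the 10 h lists, but also at 58.1 and 66.3 in the RAD21 line at 0 h. RAB13, a GTPase of tight junctions, stood at 71.9 and 70.5 and in the untreated RAD21 line at 86.4 and 89.9. ACTRT3 (70.6 and 73.7), DIAPH1, an actin-nucleating formin (65.4 and 68.3), and the shared promoter of ABHD8 and MRPL34 (69.3 and 62.8) were likewise called in both untreated RAD21 line lists. All 5 were called in 1 h replicate 2, whose name has input, and in 1 h replicate 1 only EPS8L1 (11.4) and RAB13 (10.9) were called. The promoters of EHF, an epithelial transcription factor (48.7 and 22.6), and COL7A1, the collagen of anchoring fibrils (25.8 and 5.12), were also gained.

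Outside promoters, the best ranked gained regions lay 2143 bp from the start of C11orf24 (80.7 and 81.3), in an intron of the integrin gene ITGB1 2828 bp from its start (79.1 and 75.3), 487440 bp from FAM27E3 (78.5 and 75.1), 16746 bp from FAM90A27P (76.7 and 73.7) and in an exon near TONSL (76.6 and 72.8). Each of them was also called in both untreated RAD21 line lists. Regions called in the 10 h lists and in neither an untreated list of the RAD21 line nor a WT 1 h list, a restriction chosen after seeing the data, numbered 4661. Of these 65.4% lay in introns, 22.8% in exons and 1.46% at promoters. The highest of them lay 20323 bp from CEACAM21 (69.6 and 69.1), 198065 bp from PPP1R2C (70.0 and 68.7), 122679 bp from JADE1 (69.5 and 69.2), in an intron of the 5-lipoxygenase gene ALOX5 (68.9 and 69.4) and 247645 bp from ECI2 (68.3 and 67.7). The regions near CEACAM21 and JADE1 were called for H3K4me1 in both 10 h lists and not in both 0 h lists.

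A p53 response element lay in the 300-bp window of 149 gained regions (1.49%), 1 lost region (0.0600%) and 47 of the regions called in all 4 lists (0.217%). Over all 60107 windows read, the gained ones included, 298 held an element (0.496%). Among the 4661 gained regions of the restricted set the share was 2.06%. Of the gained regions, 44 held an element without a mismatch, of which 26 lay between genes, 15 in introns, 3 in exons and 0 at promoters. Of these 44, 39 were called in neither untreated RAD21 line list and 29 in neither of these nor a 1 h list. The region in the intron of CCNG2 nearest to CXCL13, whose sequence is printed above, stood at 73.1 and 68.2 in the 10 h lists and at 27.4 in 1 h replicate 2. The region in the CFTR intron, the chloride channel gene, stood at 69.1 and 62.3, was absent from every untreated and 1 h list, and was called for H3K4me1 in both 10 h lists but not in both 0 h lists. An AP-1 site (TGANTCA, both strands) lay in 8.45% of gained windows, 22.9% of lost windows and 10.3% of windows called in all 4 lists.

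Gained regions were called more often in the 1 h list named with input than in its replicate. Of the 10018 gained regions, 5.28% were called in 1 h replicate 1, whose peak names lack input, and 28.9% in 1 h replicate 2, whose names have it. Of all merged regions, 32.8% and 41.6% were called in these 1 h lists. In the untreated RAD21 line, named with input, 28.6% and 34.4% of gained regions were called, 19.7% in both lists, and 56.7% in neither. Over all merged regions these shares were 39.9%, 43.1%, 30.1% and 47.1%. H3K4me1 was called in both lists at 36.1% of the gained regions at 0 h and 40.9% at 10 h, against 54.9% and 55.0% of all merged regions. Regions called in all 4 lists were found in 91.8% to 97.1% of cases in each of these H3K27ac lists.

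**Figure D3:**
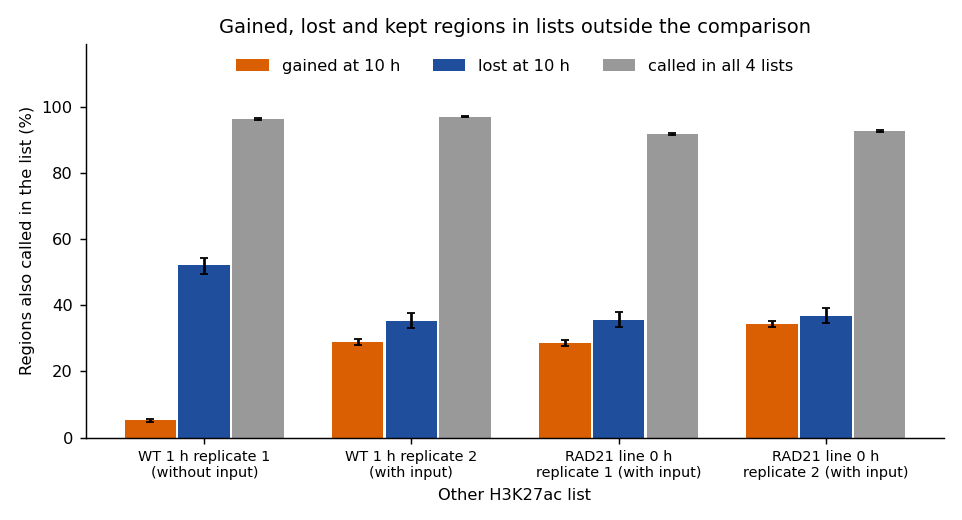
Share of gained, lost and kept regions (y axis, percent, with 95% Wilson intervals for counting error) that were also called in 4 H3K27ac lists outside the comparison (x axis). Gained regions were called in 5.28% and 28.9% of cases in 1 h replicates 1 and 2, and lost regions in 52.0% and 35.3%.

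Lost regions were fewer, narrower and farther from genes. Of the 1668, 50.8% lay between genes, 33.5% in introns, 6.95% in exons and 8.69% at promoters, with a median width of 738 bp and a median percentile of 19.9 in the 0 h lists. H3K4me1 was called in both lists at 84.7% of them at 0 h and 83.3% at 10 h, so most remained within H3K4me1 regions. These shares were 54.9% and 55.0% over all merged regions, and 98.8% at each time point for regions called in all 4 lists. Lost regions were called in 52.0% of cases in 1 h replicate 1 and in 35.3% in 1 h replicate 2, against 32.8% and 41.6% of all merged regions. In both untreated RAD21 line lists 423 of them were called (25.4%, against 30.1% of all merged regions), a restriction likewise chosen after seeing the data. Coding genes nearest to a lost region numbered 1452 of 15452 (9.40%).

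Among lost promoters, the one shared by C5, a complement component, and CNTRL, a centriole protein, had the highest mean percentile, 52.4 and 62.8 of the peaks in the 0 h lists, with 78.9 and 69.4 at 1 h and 90.3 and 92.9 in the untreated RAD21 line. IGSF9, an immunoglobulin superfamily adhesion gene, stood at 51.0 and 60.4 at 0 h, 65.9 and 70.0 at 1 h and 71.8 and 69.0 in the untreated RAD21 line. LHX2, a LIM homeobox factor, stood at 48.6 and 44.4, and NEURL1B, a ubiquitin ligase of the Notch pathway, at 42.7 and 46.7, both with calls in all of these lists. These promoters and that of LRP12 (45.6 and 44.6) were picked by rank among lost promoters called in both untreated RAD21 line lists. Their calls at 0 h and in that line and their absence at 10 h were therefore fixed by the choice. Both 1 h lists also called them, beside 68.3% (replicate 1) and 53.7% (replicate 2) of all lost regions called in both untreated RAD21 line lists. The lost promoters of MT-CYB and USP17L24, also among the highest, were not called in that line and are given below. The promoter of NRG4, an ERBB4 ligand, was lost from lower ranks (19.8 and 22.8).

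Lost regions at the top of the 0 h lists were of another kind. They lay between genes, nearest to ZNF337 (chr20:26189768-26190342, percentiles 98.3 and 96.8), GALC (chr14:88237560-88237833, 96.9 and 92.9), ANKRD30BL (a pair of regions on chromosome 2, 94.5 and 87.2, and 93.7 and 88.0) and MTIF3 (93.4 and 87.9). Each was called in 1 h replicate 1 and not in 1 h replicate 2, and those near GALC and MTIF3 and the second near ANKRD30BL were in neither untreated RAD21 line list. Mitochondrial DNA showed the same pattern, with 3 or 4 peaks in each list named without input and 0 in each list named with it. The lost promoters of MT-CYB with MT-ND6 and of USP17L24, a multicopy gene whose reads may come from near-identical copies, were called in 1 h replicate 1 and in neither 1 h replicate 2 nor the untreated RAD21 line lists.

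Distance to the nearest coding start site differed between the sets. The median was 14000 bp for gained regions, near the 14582 bp of all merged regions, 31154 bp for lost and 617 bp for regions called in all 4 lists. Regions that ranked higher lay at a median of 13169 bp, and 31.6% were at promoters, while those ranked lower had a median of 0 bp and 68.9% at promoters, beside 56.6% of all regions tested. In the class from 5000 bp to 50000 bp were 64.1% of gained, 47.2% of lost, 52.9% of all merged, 36.3% of higher-ranked and 19.1% of lower-ranked regions. Beyond 50000 bp were 14.2%, 37.8%, 19.6%, 25.1% and 9.46% of the same sets.

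**Figure D4:**
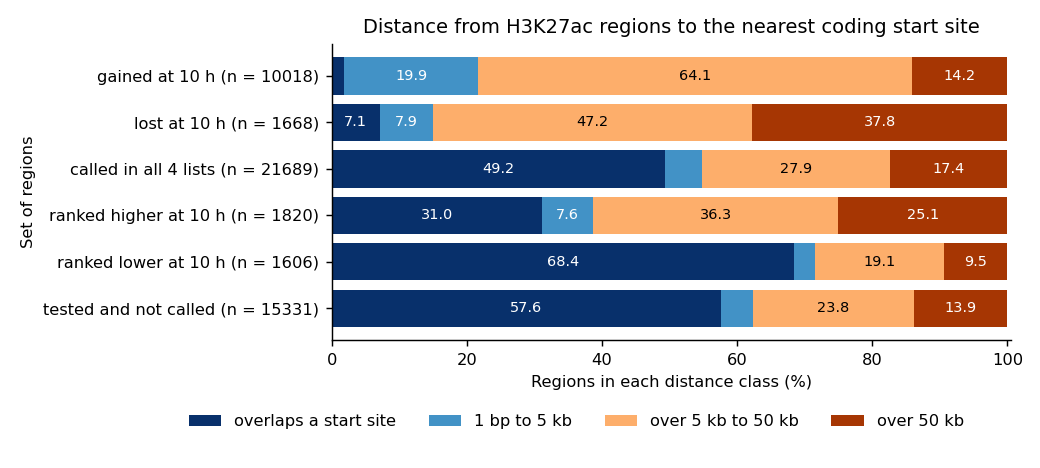
Share of regions (x axis, percent) in 4 classes of distance to the nearest coding start site, for each set of regions. Gained regions lay mostly 5000 to 50000 bp away (64.1%), and 68.4% of regions ranked lower overlapped a start site against 31.0% of those ranked higher.

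The rank changes also moved with features of the lists. In the pair of 1 h replicates, the difference of replicate 2 (with input) minus replicate 1 (without) had the same sign as the 10 h change in 1560 of the 1820 regions ranked higher and 1267 of the 1606 ranked lower, and reached at least 50% of its size in 927 and 530. Across the 18757 regions, Pearson's r between the 1 h pair difference and the 10 h change was 0.512, and Spearman's rho between width and the change was 0.516, against 0.038 with the name form as a term (regions share their lists and are not independent). The median width of regions ranked higher was 4641.5 bp, of those ranked lower 1865.5 bp and of those not called 2453 bp. With the name form as a term, 386 regions ranked higher and 437 lower, of which 166 and 190 were also called without it, and 1586 of the 1820 and 1538 of the 1606 kept their direction. Both 10 h scores exceeded both scores of the untreated RAD21 line and that of 1 h replicate 2, all named with input, in 907 of the 1820 (49.8%, against 27.3% of all tested), and fell below them in 940 of the 1606 (58.5%, against 22.6%). These shares rest on the same 10 h lists as the calls.

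**Figure D5:**
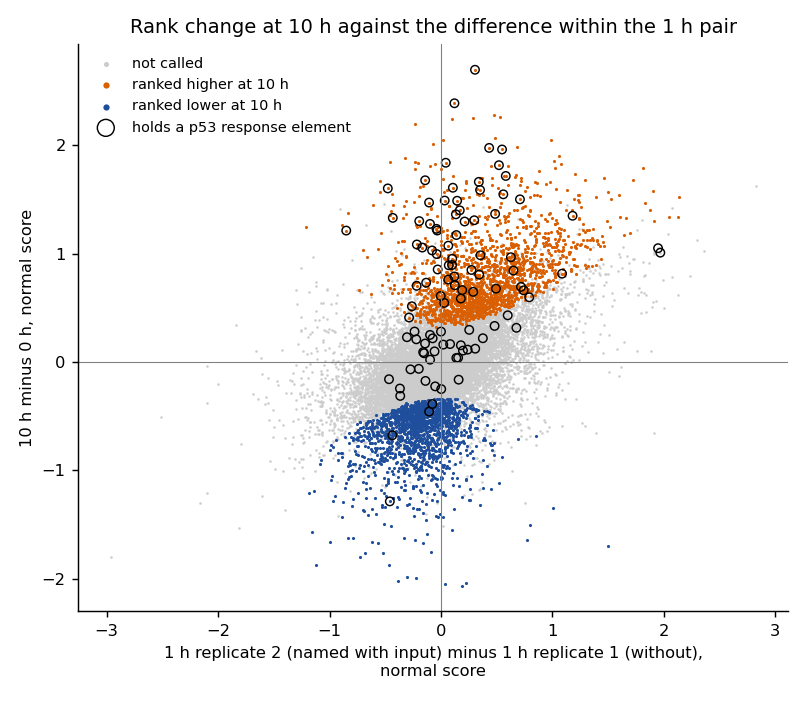
Rank change at 10 h (y axis, normal score) of the 18757 tested regions against the difference within the 1 h pair (x axis, replicate 2 with input in its peak names minus replicate 1 without), with regions ranked higher in orange, lower in blue and those that hold a p53 response element circled. The cloud of regions slopes upward (r = 0.512), and the 100 circled regions had a median 1 h difference of 0.09 and a median change of 0.72.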

How the data were processed

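The authors trimmed paired-end reads (Trim Galore 0.6.6), mapped them to GRCh37.p13 (Bowtie2 2.3.2), filtered them and called narrow peaks with MACS2 2.2.7.1, with an input control per the study's methods. The deposited lists, 1 per library, give each peak's fold enrichment (a ratio), −log10 p-value, −log10 q-value and summit, all the authors' values. The 10 input libraries were not analysed here. H3K4me1 calls came from the deposited broad lists at 0 h and 10 h.

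Peaks of the 10 H3K27ac lists were merged where they overlapped by at least 1 bp. Ranks by −log10 p-value within each list, over regions in all 10 lists, were turned into normal scores and fitted with limma 3.58.1 (R 4.3.3, lmFit, eBayes with trend, 5 groups, no covariates, Benjamini-Hochberg). The alternative with the form of the peak name as a term takes it from the 1 h pair, and so also takes up any other difference between those replicates. With 2 lists against 2, an exact two-sided permutation test cannot go below 0.333 and was not run. A promoter was the stretch of 1000 bp before and 200 bp after a coding start site (GENCODE release 44 on GRCh37). Sequences were read with pysam 0.24.0. Scripts were tested on simulated data.

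Named were the 8 promoter and 5 other regions of smallest p in each direction, the 5 promoters and 5 other regions of highest rank among gained and lost, the 4 members of smallest p in each list and 12 promoters whatever their values. Further list members, regions with a p53 response element and all members called in small counts were named after their values were seen. The members and lists were chosen with earlier results of these data known. Numbers of peaks in the WT 0 h and 1 h lists differ from those the study gives. Some results that the rule names are not reported here.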

Additional observations from a re-analysis of the deposited data

How the results depend on the processing

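Gained regions numbered 10018, but 2739 where presence needed −log10 q of 5 or more, 3578 with each list shortened to its 30000 strongest peaks, 5900 without a 0 h peak within 5000 bp, and 4661 when absent from the untreated RAD21 line and 1 h lists. Lost regions numbered 1668, but 524 under the same q limit, 8357 with 1 h replicate 2 as the only reference and 423 when called in both untreated RAD21 line lists. Leaving out 1 list gave 10766 to 19326 gained and 2347 to 4901 lost regions, since fewer lists had to concur. Regions ranked higher and lower numbered 386 and 437 with the form of the peak name as a term, 3512 and 3564 with only the 4 lists of the comparison (21689 regions tested), and 401 to 608 and 281 to 561 when each list was left out in turn, where a lone list was assumed to vary like the other groups. A replicate block gave 1787 and 1524. The replicate numbers did not pair the samples (correlation of deviations 0.00441, 2 pairs), and of 59 named regions the block moved CDKN1A past the threshold and TGFA below it, with 0 reversed. Ranking by fold took 13 of the 59 below it, the name form as a term 10, and leaving out 1 list 5 to 9. Within 2500 bp of a start site lay 8.98% of gained, 11.5% of lost and 33.8% of higher-ranked regions, and with all basic transcripts 7.62%, 16.4%, 42.1% and, of those ranked lower, 78.4% lay at promoters. By rank of fold, TP53INP1 (-0.33) and the region in an intron of SUGCT (-0.10) reversed. Of 25 list medians, 9 had the other sign with the name form as a term and 7 by fold. Depth of the libraries was not taken into account, so no limit of detection is given for a region absent from a list.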
